A study of Mus musculus with 6 samples.

Results

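The BCL2 family decides whether a cell keeps its mitochondria intact or dies by apoptosis. Here, 10 of its genes were followed in RNA of bone marrow cells labelled megakaryocytes (MKs). The members were 3 anti-apoptotic genes (*Bcl2*, *Bcl2l1* and *Mcl1*), 2 effector genes (*Bax* and *Bak1*) and 5 BH3-only genes (*Bid*, *Bcl2l11*, *Bmf*, *Bbc3* and *Pmaip1*), chosen by symbol. All 10 were among the 16579 genes of the deposited table, and all 10 passed the filter on low counts that left 12256 genes for testing. The 6 libraries came from 3-month-old mice, with 3 libraries of *Becn1*f/f mice and 3 of *Becn1*f/f;*Pf4-iCre* mice. Mice of both genotypes carry *Becn1* flanked by loxP sites on both alleles, and the second genotype adds a Cre recombinase driven by *Pf4* sequences, which act in the megakaryocytic lineage. Libraries of the second genotype are labelled *Becn1*f/f;*Pf4-iCre* and written *Pf4-iCre* for short. The labels do not state whether a library holds cells of a single mouse, so p-values measure only the spread between these libraries, which may be technical.

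Anti-apoptotic members of the family bind and hold back the pore-forming effectors BAX and BAK at the mitochondrial outer membrane. BH3-only proteins are the sensors of the family: they occupy the groove of the anti-apoptotic proteins or act on BAX and BAK directly. In MKs and platelets, BCL-XL (the product of *Bcl2l1*) restrains BAK and thereby sets the life span of the platelet, and MCL1 shares this duty in MKs. Beclin 1, the product of *Becn1*, carries a BH3 domain of its own through which BCL2 and BCL-XL can bind it. The gene targeted in these mice is thus tied to the family.

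Library totals lay between 16467560 and 17156728 counts. *Becn1* itself was measured at 118 ± 9.37 CPM (counts scaled to equal library totals by TMM; SD, n = 3) in *Becn1*f/f libraries and at 107 ± 2.74 (SD, n = 3) in *Pf4-iCre* libraries. The log2 fold change of -0.15 had a standard error of 0.12 and an adjusted p = 0.94 by the edgeR quasi-likelihood fit. The libraries of the genotypes overlapped (109 to 128 against 104 to 109.8 CPM), so a loss of *Becn1* was not clear in this RNA. The 18 MK and platelet markers listed for the check of the cell type took 0.0311% to 0.0412% of the counts in a library, whereas the 16 neutrophil markers took 0.950% to 1.71%. None of the 18 markers was at 0 in all libraries, but *Gp6* and *Mpig6b* were too low to be tested. In FPKM (a read level that accounts for transcript length and for depth), the 18 markers summed to 102 to 148, less than the single gene *Mcl1* in every library. The 16 neutrophil markers summed to 17815 to 39739 FPKM. The values below therefore describe RNA that includes transcripts of other blood cells, and the part that came from MKs was not measured. A lower value in such bulk RNA can mean fewer cells of a type or less RNA per cell, and these cannot be told apart. The log2 fold changes of all genes also followed the GC content of the transcript (Spearman's rho was -0.34 over 11953 genes, and genes are not replicates).

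Compared per length, in FPKM, the 10 genes spanned a wide range of levels, and *Mcl1* stood above the rest. *Mcl1* encodes a short-lived anti-apoptotic protein that binds NOXA, BIM, PUMA and BAK. Its level was 482, 372 and 318 FPKM in *Becn1*f/f libraries 1, 2 and 3, and 422, 453 and 387 FPKM in *Pf4-iCre* libraries 1, 2 and 3. The genotypes overlapped, with the highest and the lowest value both in *Becn1*f/f libraries. *Mcl1* made up 93.9% to 96.4% of the summed FPKM of the 3 anti-apoptotic genes in a library. *Bcl2l1* was at 10.1, 10.2 and 11.9 FPKM in *Becn1*f/f libraries and at 8.05, 9.49 and 8.66 FPKM in *Pf4-iCre* libraries. *Bcl2*, the founding member of the family, was at 8.01, 8.80 and 8.84 FPKM in *Becn1*f/f libraries and at 8.50, 9.66 and 8.34 FPKM in the others. The ranges of *Bcl2l1* and *Bcl2* overlapped, with *Bcl2l1* the higher of the pair in 4 of 6 libraries.

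Of the effectors, *Bax* was at 64.3, 87.6 and 65.8 FPKM in *Becn1*f/f libraries and at 78.0, 55.2 and 71.6 FPKM in *Pf4-iCre* libraries. *Bak1* was at 45.3, 62.5 and 64.9 FPKM in *Becn1*f/f libraries and at 50.2, 39.8 and 51.6 FPKM in the others. Both genes overlapped between the genotypes, and *Bax* was above *Bak1* in 6 of 6 libraries although their ranges met. The 2 effector genes summed to 94.98 to 150.1 FPKM in a library, against 338 to 500.2 FPKM for the 3 anti-apoptotic genes.

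Among the BH3-only genes, *Pmaip1*, which encodes NOXA, had the highest level in 5 of 6 libraries, and over all 6 libraries its mean was second in the family to that of *Mcl1*. It was above *Bax* in 4 of 6 libraries, and in *Becn1*f/f libraries the mean of *Bax* was the higher (72.6 against 62.0 FPKM). In *Becn1*f/f library 3, *Bid* was above *Pmaip1* (51.6 against 50.1 FPKM). *Bid*, whose product carries the death receptor signal to mitochondria after cleavage by caspase 8, was at 34.5 to 51.6 FPKM over all libraries. *Bcl2l11*, which encodes BIM, ranged from 15.6 to 38.6 FPKM and *Bbc3*, which encodes PUMA, from 16.03 to 22.6 FPKM, and each was above the other in 3 of 6 libraries. *Bmf*, whose product is kept at the cytoskeleton until it is released, was the lowest of the 10 genes at 3.46 to 6.15 FPKM. Only 3 steps in this order of levels had ranges that did not meet: *Mcl1* over *Pmaip1*, *Bbc3* over *Bcl2l1*, and *Bcl2* over *Bmf*. All other neighbours in the order overlapped.

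**Figure D1:**
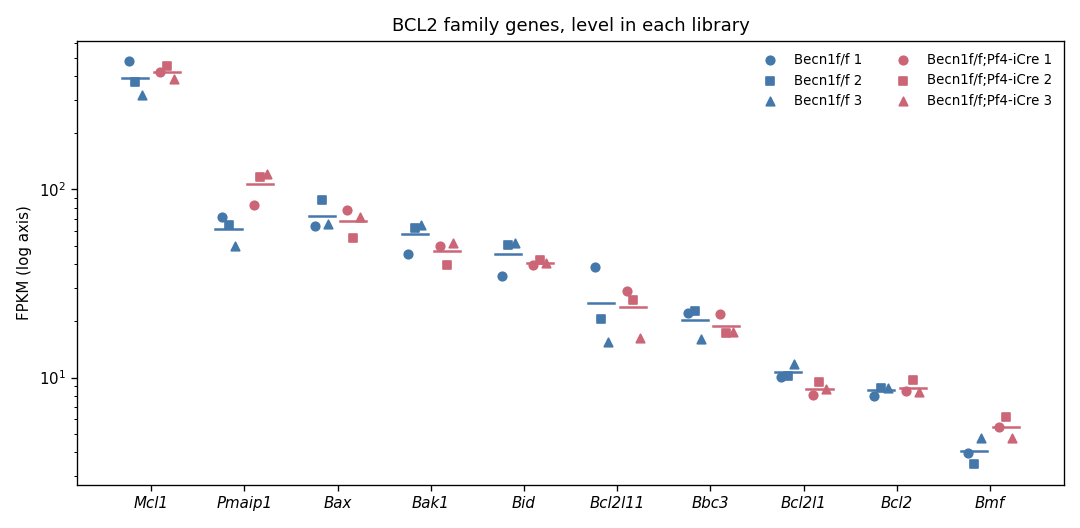
FPKM (log axis) of the 10 BCL2 family genes in each of the 6 libraries, ordered by mean level; blue points are *Becn1*f/f libraries, red points are libraries labelled *Pf4-iCre*, marker shape gives the replicate number and lines are group means (n = 3). *Mcl1* lies at 318 to 482 FPKM above all others, and *Pmaip1* is separated by genotype.

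*Bcl2l11* and *Bbc3* are known targets of FOXO transcription factors. Their upstream sequences are shown because a search of the members' promoter windows found the FOXO motif in these 2 genes only. RefSeq promoter windows (GRCm38.p6) were found for 9 of the 10 genes and not for *Pmaip1*. Both strands of the 250 bases before each annotated start were searched for TGTTTAC, the core of the FOXO motif. The 9 genes have 16 such windows, and the motif occurred in 2 of the 16, 1 each of *Bcl2l11* and *Bbc3*. Over all genes it occurred in 3.17% of 32851 windows of that length. The matches are printed in capitals within 100 bases of the plus strand, 5′ to 3′, at chr2:128125788-128125887 for *Bcl2l11* and at chr7:16310048-16310147 for *Bbc3*. The match of *Bcl2l11* starts 227 bases before the annotated start, where it reads on the opposite strand, and that of *Bbc3* 167 bases before it.
Bcl2l11: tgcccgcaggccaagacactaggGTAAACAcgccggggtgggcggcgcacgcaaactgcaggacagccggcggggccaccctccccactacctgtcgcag
Bbc3: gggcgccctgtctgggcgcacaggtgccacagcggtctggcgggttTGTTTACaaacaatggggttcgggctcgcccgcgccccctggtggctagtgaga
Neither the cyclic AMP response element TGACGTCA, found in 1.55% of all windows, nor the AP-1 motif TGANTCA, found in 6.75%, occurred in the 16 windows of the 9 genes. A match of letters is a description of the sequence and not evidence of binding. *Foxo3* had 125 ± 13.4 and 125 ± 8.62 CPM (SD, n = 3 each) in *Becn1*f/f and *Pf4-iCre* libraries.

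To ask whether the balance of the family differed between the genotypes, each gene was tested in a fit over all 12256 genes. Differentially expressed genes (DEGs) had to differ 1.5-fold or more, up or down, with *P* below 0.05 before adjustment. *Pmaip1* was the 1 member of 10 that met these thresholds, against 2.3% of all tested genes in either direction and 1.36% in the upward direction. No member was a DEG in the downward direction, against 0.938% of all tested genes. For 3 members the genotypes were apart without overlap, *Pmaip1* and *Bmf* (higher) and *Bcl2l1* (lower), against 10.6% of all tested genes (5.42% higher and 5.18% lower). *P* before adjustment was under 0.05 for 2 members, *Pmaip1* and *Bmf*, against 6.31% of all tested genes. The median log2 fold change of the 10 genes was -0.01, beside -0.02 over all tested genes, with 5 members above 0 and 5 below.

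The estimated counts of *Pmaip1* were 2719, 2606 and 2008 in *Becn1*f/f libraries 1, 2 and 3, and 3329, 4473 and 4705 in *Pf4-iCre* libraries 1, 2 and 3. In CPM, the values were 170.5, 149.9 and 113 against 199.5, 269.8 and 279, and in FPKM they were 70.9, 64.9 and 50.1 against 82.5, 117 and 120. All 3 *Pf4-iCre* libraries were above all 3 *Becn1*f/f libraries on each scale, with library 1 of the former nearest to the controls. The fold change was 1.73 (95% interval 1.32 to 2.27), or 0.79 on the log2 scale (standard error 0.18). *Pmaip1* ranked 53 of 12256 genes by *P*, and its adjusted p was 0.21 by the edgeR quasi-likelihood fit with the Benjamini-Hochberg method, where 0.0408% of all tested genes were under 0.05. DESeq2, the tool of the study's methods, gave a like log2 fold change of 0.79 with an adjusted p of 0.0074, so the tool decided on which side of 0.05 the adjusted p fell. An exact two-sided permutation test of the 6 values gave p = 0.1, the smallest that 3 libraries against 3 allow.

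Other measures of the libraries differed as well. The longest annotated transcript of *Pmaip1* is poor in GC (42.1%, at percentile 13.2 of the tested genes). Within a library, the Spearman correlation of each gene's deviation from its mean with GC content was -0.18, 0.34 and 0.30 in *Becn1*f/f libraries 1, 2 and 3 and 0.43, -0.45 and -0.50 in *Pf4-iCre* libraries. After removal of the trends with GC content and transcript length, the log2 fold change of *Pmaip1* was 0.73 (edgeR adjusted p = 0.14). Macrophage markers, 14 in all with 12 tested, took 0.0810% to 0.0849% of the counts in *Becn1*f/f libraries and 0.0858% to 0.102% in the others. Of the 12, 4 were DEGs, all higher, against 1.36% of all tested genes. Erythroid markers took 0.0515% to 0.0781% and 0.0378% to 0.0516%, and 7 of the 14 were DEGs, all lower, against 0.938% of all tested genes. The part of these cells in the level of *Pmaip1* was not tested.

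**Figure D2:**
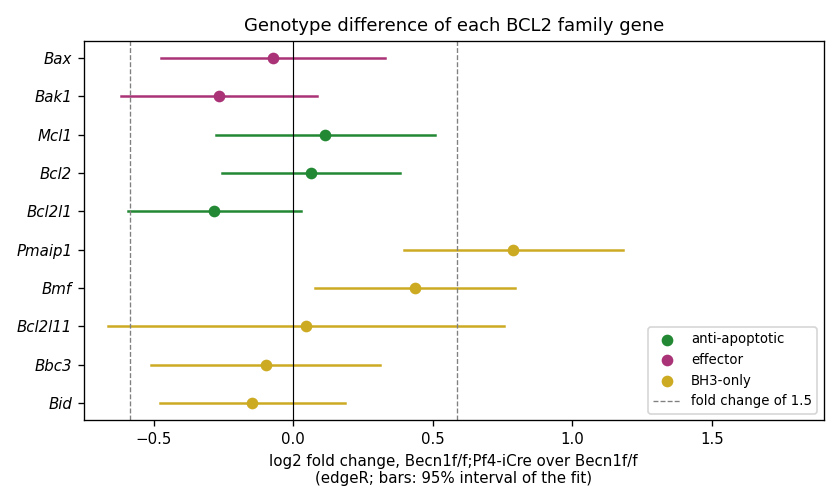
Log2 fold change of each BCL2 family gene in libraries labelled *Pf4-iCre* over *Becn1*f/f (edgeR fit over all genes, n = 3 per genotype), with bars for the 95% interval and dashed lines at a fold change of 1.5. *Pmaip1* (0.79) lies past the line, and the intervals of the other genes except *Bmf* include 0.

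*Bmf* was measured at 17.8, 14.8 and 20.1 CPM in *Becn1*f/f libraries and at 24.4, 26.4 and 20.5 CPM in *Pf4-iCre* libraries. The genotypes did not overlap in CPM, but in FPKM the lowest value of the latter (4.78) was just under the highest *Becn1*f/f value (4.80). The log2 fold change was 0.44 (standard error 0.16, edgeR adjusted p = 0.66), with a 95% interval from 0.08 to 0.79 that spans the fold change threshold. *Bcl2l1* was at 23.1, 22.03 and 25.3 CPM in *Becn1*f/f libraries and at 18.2, 21.05 and 18.6 CPM in the others. Each of the latter was below each *Becn1*f/f library, by a log2 fold change of -0.28 (standard error 0.14, edgeR adjusted p = 0.84; 95% interval -0.59 to 0.03). With the GC and length trends taken out, the value for *Bcl2l1* was -0.19. An exact two-sided permutation test gave p = 0.1 for each of these 2 genes in CPM.

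The other 7 genes overlapped between the genotypes, and their adjusted p lay between 0.88 and 0.99 in the edgeR test. *Bak1* was at 78.5, 104 and 106 CPM in *Becn1*f/f libraries and at 87.7, 66.2 and 86.5 CPM in *Pf4-iCre* libraries, with a log2 fold change of -0.27 (standard error 0.16). *Bid* was at 55.9, 79.1 and 79.1 CPM in *Becn1*f/f libraries and at 64.5, 65.3 and 63.7 CPM in the others, with a log2 fold change of -0.15 (standard error 0.15). For both genes, *Becn1*f/f library 1 was apart from libraries 2 and 3 and was the lowest of its group. The 95% intervals of the fold change were 0.65 to 1.06 for *Bak1* and 0.72 to 1.14 for *Bid*. For *Bax* the interval was 0.72 to 1.26, for *Bbc3* 0.70 to 1.24, for *Bcl2* 0.84 to 1.30 and for *Mcl1* 0.83 to 1.42. A rise of 1.5-fold lay outside the intervals of these 6 genes, and a fall of the same size lay inside that of *Bak1* alone. The direction of *Bax*, *Bbc3* and *Bcl2* turned when the GC and length trends were taken out, so none is given for them.

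*Bcl2l11* had the widest interval of the 10 genes. Its values were 152, 71.7 and 55.0 CPM in *Becn1*f/f libraries 1, 2 and 3, and 125, 96.4 and 66.1 CPM in *Pf4-iCre* libraries 1, 2 and 3. The highest *Becn1*f/f library was 2.76 times the lowest, where the same ratio was 1.15 for *Bcl2l1* and 1.62 for *Mcl1*. The log2 fold change was 0.05 (standard error 0.32), with an interval of the fold change from 0.63 to 1.69. Without *Becn1*f/f library 1 the log2 fold change was 0.60 (edgeR adjusted p = 0.39), which met the DEG thresholds, and without *Becn1*f/f library 3 it was -0.22. *Becn1*f/f library 1 also had the highest *Mcl1*, at 1575 CPM against 1164 and 974 CPM in libraries 2 and 3, and *Becn1*f/f library 3 had the lowest of both genes. Mast cell, basophil and eosinophil markers took 0.826% of the counts in *Becn1*f/f library 1 and 0.355% to 0.530% in the other 5 libraries. Their part in the spread of *Bcl2l11* was not tested.

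**Figure D3:**
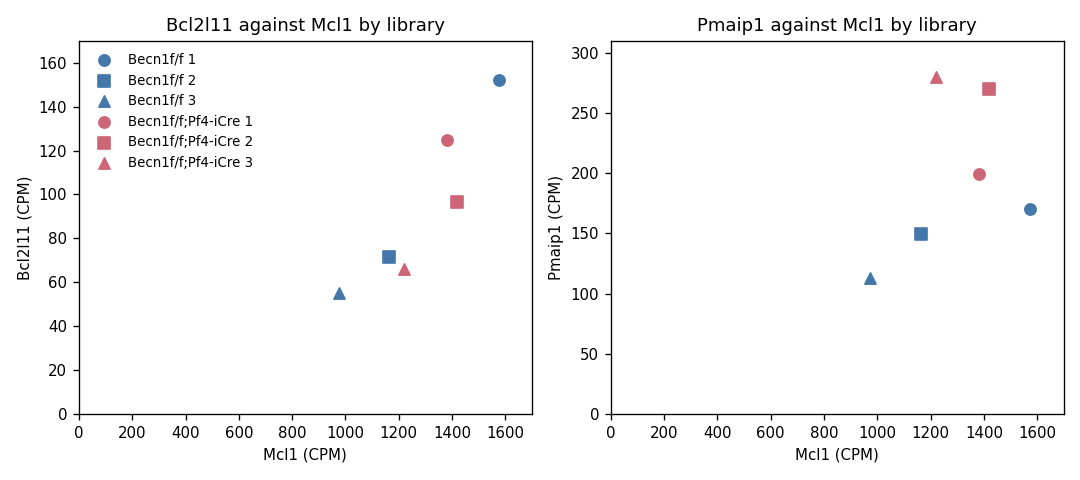
CPM of *Bcl2l11* (left) and *Pmaip1* (right) against CPM of *Mcl1*, 1 point per library; blue marks *Becn1*f/f, red the libraries labelled *Pf4-iCre*, and marker shape gives the replicate number. *Bcl2l11* is highest (152) where *Mcl1* is highest (1575) and lowest (55.0) where it is lowest (974), while *Pmaip1* is above 199 in the 3 red points at *Mcl1* values inside the blue range.

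Because NOXA binds MCL1 in preference to BCL2 and BCL-XL and hastens its degradation, the ratio of the 2 transcripts was compared within libraries, where the scaling of a library cancels. *Pmaip1* stood at 14.7, 17.4 and 15.8 FPKM per 100 FPKM of *Mcl1* in *Becn1*f/f libraries 1, 2 and 3, and at 19.6, 25.8 and 31.1 in *Pf4-iCre* libraries. The groups did not overlap, and the spread was wider in the second. The ratio uses the same *Pmaip1* values as the comparison above, so it is not separate support. The log2 ratio was -2.65 ± 0.12 (SD, n = 3) in *Becn1*f/f libraries and -1.998 ± 0.34 (SD, n = 3) in the others, a difference of 0.65 (exact two-sided permutation test, p = 0.1, the smallest possible). The ratio of *Bak1* to *Bcl2l1*, the pair that sets platelet life span, was 4.48, 6.15 and 5.47 in *Becn1*f/f libraries and 6.23, 4.19 and 5.96 in *Pf4-iCre* libraries. These values overlapped throughout, with a difference of the log2 ratio of 0.02 (exact two-sided permutation test, p = 0.9). In RNA with transcripts of other blood cells, neither ratio can be assigned to MKs or platelets.

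Summed over the 5 BH3-only genes, the level was 170.1, 162 and 138 FPKM in *Becn1*f/f libraries and 178, 208 and 199 FPKM in *Pf4-iCre* libraries. *Pmaip1* made up 36.3% to 41.7% of this sum in the former and 46.3% to 60.3% in the latter. Without *Pmaip1*, the other BH3-only genes summed to 99.2, 97.1 and 88.0 FPKM and to 95.55, 91.2 and 79.0 FPKM, and the genotypes overlapped. The 3 anti-apoptotic genes summed to 410 ± 82.6 FPKM (SD, n = 3) in *Becn1*f/f libraries and 438 ± 34.0 (SD, n = 3) in the others.

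The rest of the BCL2 family was examined for company to *Pmaip1*. Of 17 further family genes listed, 15 were in the table and 11 were tested. None of the 11 was a DEG, against 2.3% of all tested genes, a share at which a list this short could hold none. The median log2 fold change of the 11 was -0.16, and 7 of 11 lay below 0. The 3 with the smallest *P* were *Bcl2l15*, *Bcl2l2* and *Bcl2l12*. *Bcl2l15* was barely detected, at 0.827 ± 0.135 and 0.460 ± 0.187 CPM (SD, n = 3 each). Its log2 fold change of -0.83 (standard error 0.41) had an adjusted p = 0.83 by edgeR. *Bcl2l2*, which encodes the anti-apoptotic BCL-W, had -0.28 (standard error 0.16), and *Bcl2l12*, an atypical member, had -0.27 (standard error 0.21). The BH3-only gene *Bad* had -0.22 (standard error 0.17). The anti-apoptotic A1 genes are near-identical copies between which reads cannot be assigned with certainty. Of these, *Bcl2a1b* was at 3.57 ± 2.16 and 3.64 ± 1.60 CPM (SD, n = 3 each), and *Bcl2a1a* was too low to be tested. The effector gene *Bok* and the BH3-only gene *Bik* were also below the filter, at 0.312 ± 0.129 and 0.192 ± 0.143 CPM in *Becn1*f/f libraries (SD, n = 3 each).

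Downstream of BAX and BAK, cytochrome c and APAF1 assemble with caspase 9 into the apoptosome. All 18 genes listed for this stage were tested, and none was a DEG, against 2.3% of all tested genes. The median log2 fold change of the 18 was -0.03. The smallest *P* belonged to *Xiap*, an inhibitor of caspases, at 126 ± 8.48 and 180 ± 43.6 CPM (SD, n = 3 each). Its log2 fold change was 0.52 (standard error 0.17, edgeR adjusted p = 0.52), and its values overlapped between the genotypes. *Apaf1*, at 209.9 ± 16.7 and 241 ± 28.1 CPM (SD, n = 3 each), differed by 0.20 on the log2 scale (standard error 0.14). *Htra2*, which encodes a protease released from mitochondria, had -0.21 (standard error 0.15).

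*Pmaip1* and *Bbc3* are both induced by p53, so p53 and its targets were listed as a group. Of 21 genes, 19 were tested and none was a DEG, against 2.3% of all tested genes. The median log2 fold change of the 19 was 0.00 within rounding, with 9 genes above 0 and 10 below. For *Trp53* itself the log2 fold change was -0.09 (standard error 0.13). *Plk2*, which encodes a polo-like kinase, was at 84.2 ± 5.68 and 116 ± 9.75 CPM (SD, n = 3 each) without overlap, a log2 fold change of 0.46 (standard error 0.13, edgeR adjusted p = 0.39). *Btg2*, an antiproliferative gene, and *Perp*, which encodes a membrane protein of the p53 death response, had 0.32 (standard error 0.16) and -0.47 (standard error 0.25). The cell cycle inhibitor *Cdkn1a* and the p53 ubiquitin ligase *Mdm2* had 0.38 (standard error 0.28) and -0.10 (standard error 0.16).

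Of 13 regulators of BH3-only genes and of MCL1 turnover, 12 were matched and tested. *March5* was not matched, and some symbols of its family were deposited as dates, so whether it was measured is not known here. None of the 12 was a DEG, against 2.3% of all tested genes, and 6 lay above 0 and 6 below. *Atf3*, a stress-induced transcription factor that can act on the *Pmaip1* promoter, was at 710 ± 114 and 1035 ± 27.8 CPM (SD, n = 3 each) without overlap. Its log2 fold change was 0.55 (standard error 0.15, edgeR adjusted p = 0.39), just under the fold change threshold. *Btrc*, which encodes a ubiquitin ligase subunit that marks MCL1, had -0.29 (standard error 0.14) and did not overlap either. *Usp9x*, the deubiquitinase that stabilizes MCL1, had 0.14 (standard error 0.15). *Ddit3* and *Atf4*, which carry the stress response of the endoplasmic reticulum, had 0.13 (standard error 0.21) and -0.13 (standard error 0.18).

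**Figure D4:**
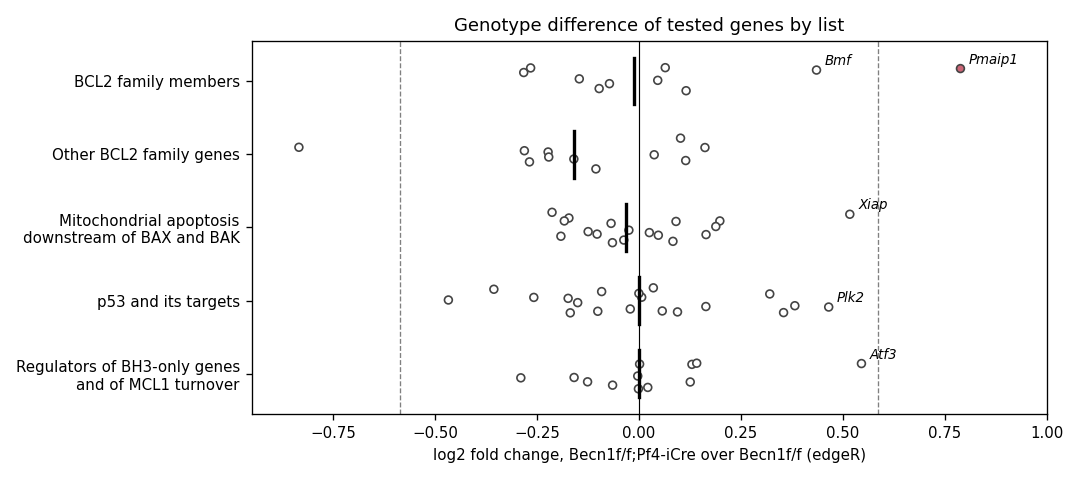
Log2 fold change (edgeR, n = 3 per genotype) of each tested gene in the 5 pathway lists, spread vertically for legibility, with a thick bar at the median of each list and dashed lines at a fold change of 1.5. Filled points are DEGs, and names are given where the unadjusted *P* was under 0.05. *Pmaip1* is the only filled point, and *Bcl2l15* at -0.83 lies past the line without meeting the *P* threshold.

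Across the 6 libraries, the genes with a pattern most like that of *Pmaip1* were found by Pearson correlation of log2 CPM among 8768 genes with a mean of at least 10 CPM. The top 5 were *Eif4e3*, *Acadm*, *Seh1l*, *Gpr141* and *Plk2*, with correlations of 0.99, 0.98, 0.97, 0.97 and 0.97. These values describe 6 points that include the genotype difference and were the highest of many, so no test was made. All 5 were without overlap higher in *Pf4-iCre* libraries, against 5.42% of all tested genes, and the choice by likeness to *Pmaip1* favours this. Their log2 fold changes ranged from 0.16 for *Seh1l* to 0.98 for *Gpr141*. *Gpr141*, an orphan receptor gene, was at 125 ± 23.1 and 248 ± 48.5 CPM (SD, n = 3 each) and was the 1 DEG of these 5 (standard error 0.18, edgeR adjusted p = 0.096).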

How the data were processed

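Gene-level values of 6 libraries of bone marrow cells labelled MKs were used, grouped by the genotype and replicate number in the sample titles. The authors filtered reads for quality, adapters and unknown bases and mapped them with HISAT; the submitters' processing notes also name Bowtie2 and the builds GRCm39 and mm39, and the counting tool is not given in the sources used here. The deposited estimated counts are not normalized and were rounded to whole numbers. FPKM, as deposited, adjusts for transcript length and depth. The table holds 16 further per-sample columns, 4 of them of a library that matches no sample, and 8 columns of group means, none of which was used.

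Genes passing edgeR's expression filter were TMM-scaled, then tested in edgeR 4.0.16 (R 4.3.3, quasi-likelihood, genotype only, Benjamini-Hochberg adjustment over all 12256 genes). Standard errors were derived from the F statistic, with 95% intervals from its degrees of freedom. CPM uses TMM-scaled totals. Alternatives were DESeq2 1.42.0, its size factors in edgeR, limma-voom and limma 3.58.1 on log2(FPKM + 1) or log2(FPKM + 0.1), other filters, the replicate block, each library left out, and per-library GC and length trends of GENCODE M21 transcripts as offsets (97.5% of tested genes matched). Member genes and lists were chosen with earlier results of these data known. Named genes are the 10 members, *Becn1*, the DEGs of each list or otherwise its 3 smallest *P*, and the 5 genes most correlated with *Pmaip1*; others (*Foxo3*, *Trp53*, *Cdkn1a*, *Mdm2*, *Ddit3*, *Atf4*, *Bad*, *Bcl2a1a*, *Bcl2a1b*, *Bok*, *Bik*, *Gp6* and *Mpig6b*) were chosen after their values were seen. No replicates were duplicates of each other (chi-square over its degrees of freedom, 15.2 to 50.3). On simulated counts of 12158 genes with 200 changed, the edgeR step called 193 of the 200 and 157 unchanged genes as DEGs. The changes put in were all larger than that of *Pmaip1*, so the rate for smaller changes is not known. With none changed, 153 genes were called. Counting error covers the sampling of reads only, and 3 libraries per genotype limit the precision.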

Additional observations from a re-analysis of the deposited data

How the results depend on the processing

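*Pmaip1* was higher and met the DEG thresholds under all 16 alternatives, with a log2 fold change of 0.73 to 0.79 in the 10 that kept all libraries and of 0.64 to 0.93 when each library was left out, and adjusted p of 0.0074 to 0.88. Its log2 ratio to *Mcl1* differed by 0.50 to 0.83 without single libraries. The deviations of libraries sharing a replicate number had correlations of 0.06, -0.31 and 0.21, and only replicate 3 correlated best with its own number. With 3 libraries per genotype, these values cannot decide whether the numbers pair the libraries. The replicate block gave 0.79 for *Pmaip1* (adjusted p = 0.14) and 296 DEGs, and changed no call among the members. Requiring an adjusted p under 0.05 left 0 members and 5 genes in all, 5 higher and 0 lower, of 282 DEGs (167 and 115); DESeq2 had 77 genes under that limit, *Pmaip1* among them. limma on log2(FPKM + 1) gave 129 DEGs (91 higher, 38 lower), and with a mean FPKM of at least 1 it gave 137 (96 and 41), so the share higher moved from 59.2% to 70.5% and 70.1%. Without single libraries, DEGs numbered 225 to 410 (133 to 267 higher, 92 to 208 lower), members among them 1 to 2, and the median of the members lay between -0.17 (without *Becn1*f/f;*Pf4-iCre* library 1) and 0.023. The 267 higher DEGs came without *Becn1*f/f library 1 and the 208 lower without *Becn1*f/f library 2.

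Directions turned for genes near 0. *Bcl2l11* was at -0.0085 and -0.0069 in limma on log2(FPKM + 1), with either filter, and log2(FPKM + 0.1). With the GC and length correction, *Bcl2*, *Bax* and *Bbc3* were at -0.0059, 0.053 and 0.023. Without single libraries the log2 fold changes ran from -0.013 to 0.18 for *Bcl2*, -0.031 to 0.33 for *Mcl1*, -0.22 to 0.093 for *Bax*, -0.26 to 0.030 for *Bbc3* and -0.22 to 0.60 for *Bcl2l11*, and the *Bak1* to *Bcl2l1* difference from -0.11 to 0.20. *Bcl2l1*, *Bak1*, *Bid* and *Bmf* kept their direction in all 16. The causes were not tested.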

Other observations

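Marker lists of other blood cells describe the RNA in which the family was measured. Over all 12256 tested genes, 2.3% were DEGs, 5579 lay above 0 and 6677 below. Of 16 neutrophil markers tested, 15 were below 0 (median log2 fold change -0.42), and *Mmp9* was the DEG. All 14 erythroid markers were below 0 (median -0.64), and the 7 DEGs were *Hba-a1*, *Alas2*, *Slc4a1*, *Klf1*, *Rhag*, *Ermap* and *Ank1*. Reads of *Hba-a1* may be split with its paralog. Of the 12 macrophage markers tested, 11 were above 0 (median 0.42), and the 4 DEGs were *Mrc1*, *Cd163*, *C1qc* and *Siglec1*. Of 10 B cell markers, 9 were below 0 (median -0.22) and *Igll1* was the DEG. None of the 8 tested T and NK cell markers (median -0.02) and none of the 10 mast cell, basophil and eosinophil markers (median -0.23) was a DEG. Of 16 tested MK and platelet markers, 11 were below 0 (median -0.11). *Pf4* was the DEG among them, at -1.01 on the log2 scale (standard error 0.29) with an adjusted p = 0.42 by edgeR. None of these list genes had an adjusted p under 0.05.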
